A study of Arabidopsis thaliana with 31 samples.

Results

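The genes described here carry the auxin response: 29 Aux/IAA genes, 15 ARF genes and 4 TIR1/AFB genes, taken by locus identifier from a table of 32678 Arabidopsis loci, 48 members in all. The table held 31 libraries from root cells of Arabidopsis thaliana, accession Col-0: 20 single quiescent center (QC) cells, 4 aliquots of QC cells that were pooled and then split (technical repeats), 3 single stele cells taken at 0 h after the root tip was cut off and 4 single stele cells taken 16 h after the cut. QC cells came from plants carrying WOX5:GFP, in which the WOX5 promoter marks the QC, at 6 days by their labels (age given as DAS). Stele cells came from plants of 7 DAS carrying WOL:CRE-GR 35S:lox-CFP, in which dexamethasone lets a Cre recombinase driven by the WOL promoter switch on a lasting CFP mark, so that a marked cell descends from a WOL-expressing cell of the stele. All stele plants had therefore been treated with dexamethasone, at 0 h as well as at 16 h, and in all of them the root tip had been removed, at 0 h immediately before the cells were taken; the labels give neither step for the QC plants. QC and stele cells thus differed in line, age and treatment along with cell type, and these cannot be told apart.

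Auxin acts by removing repressors. Aux/IAA proteins bind ARF transcription factors at auxin-responsive genes and bring in TOPLESS corepressors. Auxin fits between a TIR1/AFB F-box protein and a short stretch of the Aux/IAA protein, the degron, and the ubiquitin ligase that holds the F-box protein then marks the Aux/IAA for destruction, which frees the ARF. In the root tip an auxin maximum lies at the QC, and ARF5 (MONOPTEROS) is known for its part in forming the embryonic root and vascular tissue.

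Not all Aux/IAA genes encode the degron, and this difference is followed below, so the coding stretch of its core is shown first for the members the results turn on. Coding sequences were read from the RefSeq annotation of TAIR10.1. In 23 of the 29 genes the coding sequence held codons for GWPP followed by V, I or L. The lines give the stretch 5′ to 3′ on the coding strand, with the 5 codons of the core in capitals.

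IAA9 (AT5G65670, chr5:26255104-26255136, plus strand): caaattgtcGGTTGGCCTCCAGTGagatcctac
IAA8 (AT2G22670, chr2:9637725-9637757, plus strand): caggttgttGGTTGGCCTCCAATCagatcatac
IAA13 (AT2G33310, chr2:14115230-14115262, minus strand): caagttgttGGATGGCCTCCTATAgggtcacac
IAA12 (AT1G04550, chr1:1241058-1241090, plus strand): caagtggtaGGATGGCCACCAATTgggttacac
IAA2 (AT3G23030, chr3:8181384-8181416, minus strand): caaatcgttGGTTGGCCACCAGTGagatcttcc
IAA16 (AT3G04730, chr3:1289727-1289759, minus strand): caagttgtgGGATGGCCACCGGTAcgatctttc
IAA17 (AT1G04250, chr1:1136938-1136970, plus strand): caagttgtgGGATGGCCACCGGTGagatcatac
IAA11 (AT4G28640, chr4:14143003-14143035, plus strand): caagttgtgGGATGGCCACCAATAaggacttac
IAA31 (AT3G17600, chr3:6020782-6020814, minus strand): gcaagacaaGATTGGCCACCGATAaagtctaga

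The IAA31 line is shown for contrast: its capitals mark the stretch nearest to the core, which keeps the tryptophan and proline codons but not the glycine codon before them, so IAA31 was counted among the 6 genes without the core. The other 5 were IAA20 (AT2G46990), IAA30 (AT3G62100), IAA32 (AT2G01200), IAA33 (AT5G57420) and IAA34 (AT1G15050), in which no WPP codons were found. Between them the 23 genes used 20 different versions of the 15 bases. Codons for the LxLxL motif, with which Aux/IAA proteins bind TOPLESS, were searched only in the first part of the longest coding sequence. They were found in 22 of the 23 genes with the degron core and in 5 of the 6 without it. The exceptions were IAA2 among the 23 and IAA33 among the 6. The core of IAA2 lay at codon 150 of 261, so a motif near it was outside the stretch searched.

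The receptor genes share a stretch that nearly complements a microRNA, miR393, which is known to direct the cutting of TIR1, AFB2 and AFB3 transcripts. The mature sequence is given first, with its seed in capitals, and then the best-matching stretch in the coding sequence of each receptor, in which capitals mark bases that differ from the full complement of the microRNA.

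miR393a-5p (AT2G39885, chr2:16652111-16652132, plus strand): uCCAAAGGgaucgcauugaucc
TIR1 (AT3G62980, chr3:23273727-23273748, minus strand): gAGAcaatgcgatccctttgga
AFB1 (AT4G03190, chr4:1405341-1405362, minus strand): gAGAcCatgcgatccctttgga
AFB2 (AT3G26810, chr3:9870237-9870258, plus strand): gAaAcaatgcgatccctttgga
AFB3 (AT1G12820, chr1:4369085-4369106, minus strand): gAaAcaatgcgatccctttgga

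AFB1 differed from the complement at 4 of 22 bases, TIR1 at 3, and AFB2 and AFB3 at 2 each. Of the 15 ARF genes, ARF10, ARF16 and ARF17 held a near-complement of miR160, which is known to target them, with 2, 3 and 1 differing bases of 21, while the best stretch in each of the other 12 differed at 8 or 9 bases. They are printed in the same way because ARF10 was 1 of the 2 members called higher after the cut.

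miR160a-5p (AT2G39175, chr2:16340282-16340302, plus strand): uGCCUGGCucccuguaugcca
ARF10 (AT2G28350, chr2:12115741-12115761, plus strand): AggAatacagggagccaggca
ARF16 (AT4G30080, chr4:14704141-14704161, minus strand): GggTTtacagggagccaggca
ARF17 (AT1G77850, chr1:29274189-29274209, plus strand): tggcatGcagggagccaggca

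A match is a description of letters. The microRNAs themselves were not measured, since the libraries were made from polyA RNA, and the precursor loci MIR393A, MIR393B, MIR160A, MIR160B and MIR160C were listed at 0 in all 31 libraries.

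Levels are given as fragments per 1000000 (FPM): the deposited log2 value was turned back into a number of reads and divided by the reads of the library over all loci, which ran from 11637897 to 127775758. Each library is a single cell or aliquot and no plant is named, so each group counts as a single sample. No p-value is given. A difference is the difference of group medians of log2(FPM + 1), and it was called where it reached 1 on that scale; for the 4 cells at 16 h against the 3 cells at 0 h the groups also had to be free of overlap. The genes detected in a library were nested: QC cells 8 to 13 listed only genes also listed in QC cell 1, QC cells 3 to 7 only genes of QC cell 2, QC cells 19 and 20 only genes of QC cell 14, aliquots 2 to 4 only genes of aliquot 1, and the stele cells of each time only genes of replicate 1 of that time. A member at 0 in the first library of such a set is therefore at 0 in the whole set, and a 0 carries no upper limit from depth. QC cells 15 to 18 stood in no set. The counts of QC cells 15 and 16, and those of QC cells 17 and 18, lay closer than in any other QC pair. The median chi-square over genes was 2.38 and 2.41, against 184 for the next pair. Reads were 14193636 and 72145275 in the first pair and 13734710 and 46616285 in the second. These libraries were kept apart as QC cells. Whether each pair came from 1 cell was not tested, so counts of QC cells may hold a cell more than once. Counting each pair once left 2 members higher in QC cells and 29 higher in stele 0 h (all genes, 4.47% and 58.9%).

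The labels were checked on marker genes. The 6 QC markers summed to 745 to 5196 FPM in QC cells and to 19.7 FPM or less in stele cells; WOX5, SCR, PLT1, PLT2 and BBM were above 0 in all 20 QC cells, and AGL42 in 1 QC cell and no other library. The 6 stele markers summed to 398 to 1126 FPM at 0 h, 2.42 to 204 FPM at 16 h and 22.5 FPM or less in QC cells, with the phloem gene APL at 0 in every library. SHR, a gene of the stele, was above 0 in all 3 cells at 0 h and in none at 16 h. Root cap markers SMB and FEZ and endodermis and cortex markers were at 0 in QC and stele cells, and of 4 epidermis markers only GL2 was listed in them, at 4.65 FPM or less; FEZ was listed in 3 aliquots, at up to 3.13 FPM. The reporter entries did not follow the lines alike. CFP had deposited log2 values of 14.07 to 16.16 in stele cells and of 4.52 or less in QC cells, but GFP, which marks the QC line, was at 0 in 13 of the 20 QC cells (highest 4.75) and at 13.91 to 16.00 in stele cells, so that the GFP entry goes against the QC label. WOX5 itself, whose promoter drives GFP in that line, was at 124 to 3193 FPM in QC cells. The GFP and CFP entries had close medians in each group, 15.60 and 15.76 in stele cells at 0 h and 3.03 and 2.79 in the aliquots. Why both entries were high in stele cells, and whether they share reads, was not tested.

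All 48 members were rows of the table, and 41 were above 0 in at least 1 library. The 7 others, IAA5, IAA6, IAA15, IAA29, IAA32, IAA34 and ARF11, were at 0 in all 31. Stele cells listed more members than QC cells: 31 (31 to 34) at 0 h and 31.5 (28 to 36) at 16 h, as medians with their range, against 15.5 (12 to 26) in QC cells. These libraries also listed more genes of every kind, with medians of 11962 and 12672.5 against 5858, and over the 20 QC cells the number of members rose with the number of genes (Spearman's rho 0.736 over 20 cells that share their sets, given as a description). Thinned to the depth of the smallest library, the medians were 31, 29 and 15 members.

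Of the 41 members seen, 6 were above 0 in all 20 QC cells, against 10.3% of the 17508 genes seen in any library: the repressor genes IAA8 and IAA9, the activator ARF genes ARF6 and ARF7 and the receptor genes TIR1 and AFB2. The same 6 were above 0 in all 31 libraries. At least 15 of 20 QC cells listed 12 of the 41, against 22.4% of genes, and all 7 stele cells listed 24, against 54.8%. There were 10 members seen in a stele cell and in no QC cell (all genes, 17.4%): IAA7, IAA14, IAA16, IAA17, IAA19, IAA28, IAA31, ARF3, ARF4 and ARF10. Of these, IAA16, IAA17, IAA19 and ARF4 were in every stele cell (all genes, 4.52%). The reverse, a QC cell and no stele cell, held for IAA27 and ARF17, 2 of 41 (all genes, 11.3%), at 0.146 FPM or less and 1.28 FPM or less.

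**Figure D1:**
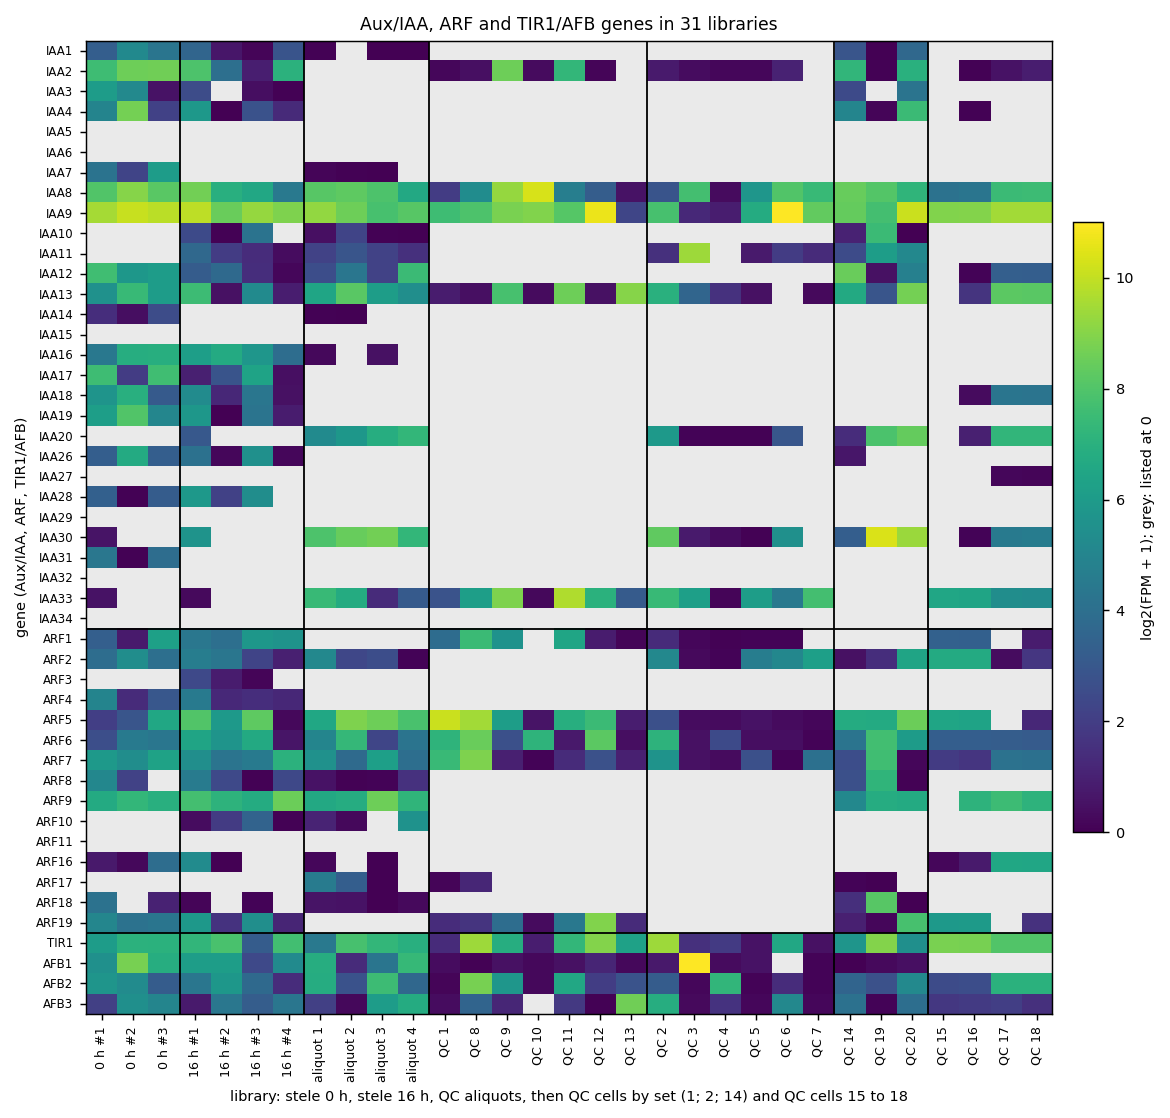
Level of each of the 48 genes, as log2(FPM + 1) on the color scale, in the 31 libraries; grey marks a gene listed at 0, and black lines part the 3 gene families and the groups or sets of libraries. The rows of IAA8, IAA9, ARF6, ARF7, TIR1 and AFB2 have no grey cell, the rows of IAA16, IAA17, IAA19 and ARF4 are filled in the 7 stele cells and grey in all 20 QC cells, and 7 rows are grey throughout.

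In the comparison of QC cells with stele cells at 0 h, 39 members could be compared, and 29 were called higher in stele 0 h and 2 higher in QC cells. Over all 16270 genes compared, 58.3% were called higher in stele 0 h and 4.71% higher in QC cells, so a call toward the stele was the common outcome. The median difference, QC minus stele, was -3.16 over the members and -1.90 over all genes. A difference for a gene at 0 in most QC cells depends on the added 1 FPM, so levels are given with each.

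Every QC cell listed 3 or 4 of the 4 receptor genes. TIR1 (AT3G62980), the founding auxin receptor, ran at 67.4, 131 and 128 FPM in the stele cells at 0 h, 151, 231, 8.32 and 202 FPM at 16 h and 21.1, 223, 157 and 120.4 FPM in the aliquots. In QC cells it ranged from 0.416 to 665 FPM (median 105), so QC cells overlapped the stele and no difference was called (-0.29). Over the 7 QC libraries that head a set or stand alone the difference was 1.00, just past the size for a call. That choice was made after seeing the data, and under it 10.5% of all genes were called higher in QC cells. Per kilobase of its longest transcript TIR1 was the highest receptor in QC cells, aliquots and stele at 16 h, at medians of 39.8, 52.4 and 66.6 FPM per kb, and lay next to AFB1 at 0 h (48.4 against 49.8), less than the spread between cells of either gene.

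AFB1 (AT4G03190), the receptor tied to rapid auxin responses in the root, differed most. Stele cells held 45.4, 427 and 116 FPM at 0 h and 69.5, 67.8, 4.36 and 37.2 FPM at 16 h. Of the 20 QC cells, 14 listed AFB1 at 1.21 FPM or less, 5 listed it at 0, and QC cell 3 alone held 2132 FPM, above every other library. The 4 aliquots, which the paper states came from a pool of only 4 QC cells, held 114, 1.55, 18.2 and 164 FPM. That pool carried AFB1 at levels that most single QC cells did not. In a pool, fewer cells with a transcript and less transcript per cell cannot be told apart. The difference of medians, QC minus stele 0 h, was -6.60.

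AFB2 (AT3G26810) ran from 0.0693 to 428 FPM (median 5.76) in QC cells and from 8.27 to 52.8 FPM (median 38.2) at 0 h, and AFB3 (AT1G12820) from 0 to 387 FPM (median 2.28) and 3.27 to 44.1 FPM (median 31.3). Both were called higher in stele 0 h, at -2.54 and -3.30, although single QC cells reached far above every stele cell. The high cells were not the same for each receptor: AFB2 was highest in QC cell 8 (428 FPM) and AFB3 in QC cell 13 (387 FPM), where AFB2 was at 5.95 FPM. The exons of AFB3 and AFB1 share up to 638 and 423 bases with loci on the other strand. The library kit keeps no strand, so reads from such a stretch cannot be told apart; the partner of AFB3 in the table, AT1G12810, ranged up to 128 FPM in QC cells, and that of AFB1, AT4G03180, was at 0 in every QC cell and aliquot and at 24.4 FPM or less in stele cells.

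**Figure D2:**
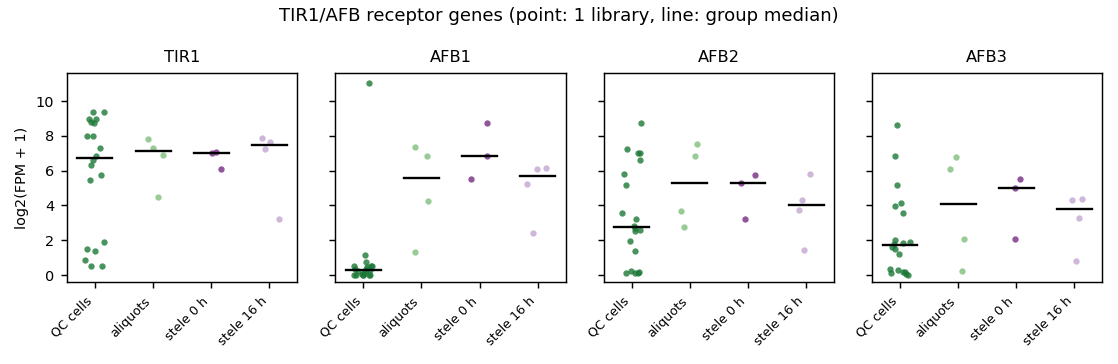
Level of the 4 receptor genes as log2(FPM + 1) in the 20 QC cells, 4 pooled-and-split libraries, 3 stele cells of 0 h and 4 of 16 h; each point is 1 library and each black line a group median. AFB1 lies near 0 in all QC cells but QC cell 3, which stands at 2132 FPM, while the TIR1 points of the stele cells lie within the range of the QC cells.

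Among the Aux/IAA genes, IAA9 (AT5G65670) led in the stele. It held 725, 1089.6 and 938 FPM at 0 h and 947, 361, 605 and 467 FPM at 16 h, and per kilobase it was the highest of all 48 members in each of the 7 stele cells. In the aliquots it held 598, 383, 221 and 280.0 FPM. QC cells ranged from 0.824 to 2087 FPM (median 333), with QC cells 3, 4 and 13 at 1.42, 0.824 and 3.88 FPM and QC cells 6, 12 and 20 at 2087, 1644 and 1104 FPM. The median was called lower in QC cells (-1.49), with overlap. Its paralog IAA8 (AT2G22670) held 259.8, 517 and 289 FPM at 0 h and 406, 122, 94.4 and 20.7 FPM at 16 h, and from 0.262 to 1289 FPM (median 99.3) in QC cells (-1.69). The 2 genes did not peak in the same QC cells: IAA8 was highest in QC cell 10 (1289 FPM, IAA9 481 FPM), and in QC cell 12, where IAA9 was 1644 FPM, IAA8 was 8.55 FPM.

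Only 1 Aux/IAA gene was called higher in QC cells. IAA33 (AT5G57420), 1 of the 6 genes without the degron core, was above 0 in 17 of 20 QC cells, from 0 to 828 FPM with a median of 54.6 FPM. In stele cells it was listed only in replicate 1 of each time, at 0.43 and 0.209 FPM. The difference was 5.75, and the aliquots held 170.4, 108, 1.56 and 7.78 FPM. The 17 cells were all cells of the sets of QC cell 1 and QC cell 2 and QC cells 15 to 18. The 3 cells at 0 were QC cells 14, 19 and 20, which form the remaining set, so this 0 rests on the gene list of QC cell 14.

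IAA20 (AT2G46990) and IAA30 (AT3G62100), close paralogs that also lack the core, were above 0 in fewer QC cells than IAA33. Both were above 0 in the same 11 QC cells and at 0 in the same 9: all 7 cells of the set of QC cell 1, and QC cells 7 and 15. QC cells 19 and 20 were highest, with 234 and 334 FPM of IAA20 and 1317 and 647 FPM of IAA30. QC cell 2 held 59.5 and 316 FPM, and QC cells 17 and 18 held 149 and 151 FPM of IAA20 and 22.4 and 23.9 FPM of IAA30. In the aliquots IAA20 held 37.1, 56.4, 114 and 157 FPM and IAA30 242, 349, 406 and 157 FPM, and per kilobase IAA30 was the highest member in 3 of the 4. In stele cells IAA20 was listed in 1 cell (replicate 1 at 16 h, 7.24 FPM) and IAA30 in that cell (48.9 FPM) and in replicate 1 at 0 h (0.516 FPM). Their QC medians lay at or below 0.0571 FPM, and neither was called against stele 0 h. Over the 7 QC libraries that head a set or stand alone, both were called higher in QC cells, at 1.39 for IAA20 and 3.27 for IAA30. That choice was made after seeing the data, and under it 10.5% of all genes were called higher in QC cells, against 4.71% over all QC cells.

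The stretch before the annotated start of these 2 genes held the same auxin response element, TGTCTC, inside a shared run of 18 bases. It is printed here on the plus strand, which is the strand of both genes, with the element in capitals; its first base lies 69 bases before the start of IAA20 and 56 before that of IAA30.

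IAA20 (chr2:19307633-19307662, plus strand): tttagcggacgcTGTCTCatcattccaccg
IAA30 (chr3:22995618-22995647, plus strand): ctttaacaacacTGTCTCatcattccacca

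TGTCTC, searched on both strands in the 250 bases before the start, was found for 9 of the 29 Aux/IAA genes, for 1 of 15 ARF genes and for none of the 4 receptor genes, against 10.8% of 31911 stretches of that length. IAA8 held it and IAA9 and IAA33 did not, and of the 7 members at 0 in every library IAA5, IAA6, IAA32 and IAA34 held it.

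The FPM values of the 6 genes without the core were summed, not divided by transcript length. Their share of the Aux/IAA level was 14.9% in QC cells as a median, from 0.00936% in QC cell 10 to 68.2% in QC cell 19, and 31.7% to 49.2% in the aliquots. In stele cells it was 1.07% or less at 0 h and 2.60% or less at 16 h, and 3 of the 4 cells at 16 h held none. The 4 aliquots lay above all 7 stele cells, whereas QC cells spread over both ranges. The genes behind the share changed with the set: IAA33 alone in the set of QC cell 1, IAA20 and IAA30 alone in the set of QC cell 14, all 3 in QC cells 2 to 6 and 16 to 18, and IAA33 alone in QC cells 7 and 15. The 23 genes with the core summed to 1891 to 3307 FPM at 0 h, 632 to 2116 FPM at 16 h, 539 to 1014 FPM in the aliquots and 3.22 to 2346 FPM in QC cells.

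**Figure D3:**
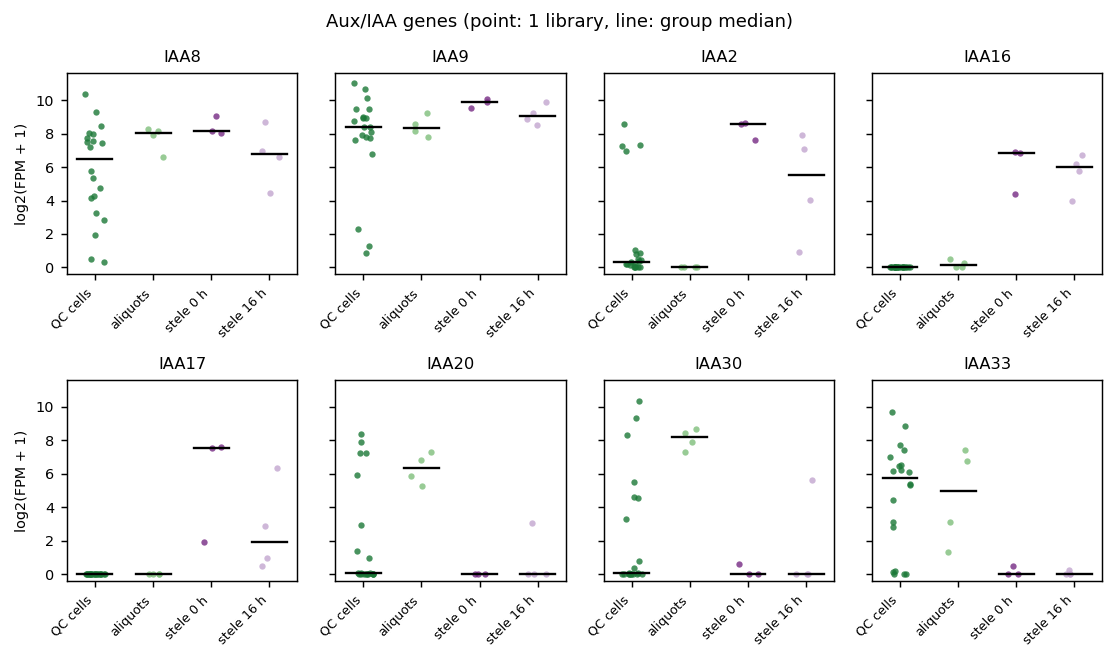
Level of 8 Aux/IAA genes as log2(FPM + 1) in the 20 QC cells, 4 aliquots and 7 stele cells; each point is 1 library and each black line a group median. IAA8 and IAA9 are present throughout, IAA16 and IAA17 rise from the zero line only in stele cells and, for IAA16, faintly in 2 aliquots, and IAA20 and IAA30 stand at 37.1 FPM or more in all 4 aliquots, IAA33 in 2 of them, and all 3 vary widely over the QC cells.

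**Figure D4:**
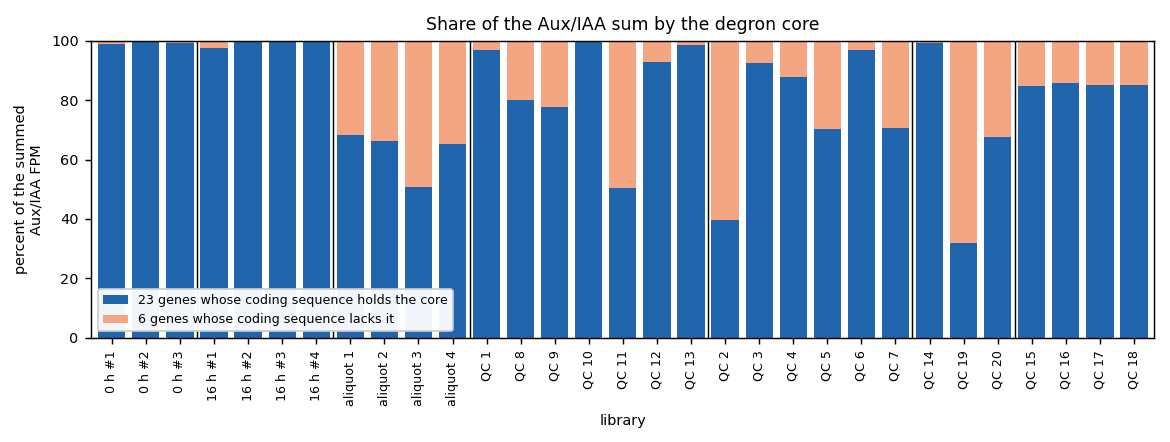
Percent of the summed Aux/IAA FPM that came from the 23 genes whose coding sequence holds the degron core and from the 6 genes that lack it, as stacked bars from 0 to 100, in each of the 31 libraries; black lines part the groups or sets. The 6 genes make up 2.60% or less in every stele cell and 31.7% to 49.2% in the 4 aliquots, and range from near 0 to 68.2% in QC cells.

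The closely related genes IAA7 (AXR2), IAA14 (SOLITARY-ROOT), IAA16 and IAA17 (AXR3) were at 0 in all 20 QC cells. IAA16 (AT3G04730) held 20.1, 113 and 118 FPM at 0 h and 71.6, 106, 53.6 and 14.4 FPM at 16 h and 0 in the 7 QC libraries that head a set or stand alone; aliquots 1 and 3 held 0.186 and 0.407 FPM. IAA17 (AT1G04250) was at 0 in all QC cells and aliquots and held 189, 2.84 and 196 FPM at 0 h and 0.963, 6.31, 81.4 and 0.385 FPM at 16 h, with both high and low cells at each time. IAA19 (AT3G15540), known from tropic growth, held 71.2, 259 and 32 FPM at 0 h and 55.8, 0.0284, 17.7 and 0.812 FPM at 16 h and 0 in QC cells and aliquots. IAA28 (AT5G25890), known from lateral root founder cells, was at 9.45, 0.0356 and 8.17 FPM at 0 h and 57, 3.41, 41.6 and 0 FPM at 16 h.

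IAA1 to IAA4 form a group of close relatives. IAA2 (AT3G23030), whose promoter serves as an auxin reporter in roots, held 191, 378 and 395 FPM at 0 h, 239.8, 15.3, 0.916 and 132 FPM at 16 h and 0 in the aliquots. It was above 0 in 17 of 20 QC cells, but only QC cells 9, 11, 14 and 20, at 378, 155, 151 and 124 FPM, were above 1.06 FPM. IAA1 held 8.76, 36.6 and 18.6 FPM at 0 h and 11.2, 0.597, 0.11 and 6.16 FPM at 16 h. IAA3 held 66.2, 35.6 and 0.443 FPM and 4.94, 0, 0.33 and 0.0428 FPM at these times, and IAA4 30.4, 420.3 and 3.39 FPM and 56.8, 0.0284, 5.9 and 1.45 FPM, so each gene had cells near 0 at 16 h. IAA1, IAA3 and IAA4 reached 1 FPM in no QC cell other than 14 and 20, where IAA4 held 30.7 and 177 FPM. IAA18 and IAA26 held 50.9, 123 and 7.72 FPM and 8.68, 106 and 8.76 FPM at 0 h; IAA18 appeared in QC cells 16 to 18 (0.236, 18.3 and 17.9 FPM) and IAA26 in QC cell 14 alone (0.591 FPM). The exons of IAA3 share 536 bases with AT1G04230, and that gene was above 0 in 11 libraries where IAA3 was at 0.

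The group of IAA10 to IAA13, of which IAA12 (BODENLOS) is the known partner of ARF5 in the embryo, was uneven. IAA13 (AT2G33310) held 46.8, 168 and 67.2 FPM at 0 h and 86.4, 291, 68 and 41.7 FPM in the aliquots, and was above 0 in 18 of 20 QC cells. Of those, QC cells 2, 9, 11, 13, 14, 17, 18 and 20 held 101 to 507 FPM and the others 11.1 FPM or less, so QC cells fell below, among and above the stele cells. IAA12 (AT1G04550) held 195, 55.3 and 67.6 FPM at 0 h, 5, 19, 3.48 and 178 FPM in the aliquots and 359 FPM in QC cell 14, and was at 0 in the 13 cells of the sets of QC cell 1 and QC cell 2. IAA11 (AT4G28640) was highest in QC cell 3 (678 FPM), the cell with the high AFB1, and IAA10 (AT1G04100) in QC cell 19 (178 FPM); both were at 0 in stele 0 h. The exons of IAA13 share 784 bases with AT2G33300, and that gene was at 0 in all 31 libraries.

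Of the ARF genes, class A members act as activators. ARF5 (AT1G19850) was 1 of the 2 members called higher in QC cells, at 1.51. QC cells ranged from 0 to 1098 FPM (median 36.6): the cells of the set of QC cell 2 held 5.37 FPM or less, while those of the set of QC cell 14 held 104 to 367 FPM, and QC cells 1 and 8 held 1098 and 717 FPM. Stele cells at 0 h held 3.09, 6.37 and 93.1 FPM and the aliquots 93.9, 465, 382 and 232 FPM. Without stele 0 h replicate 1 the difference was -0.33, without replicate 2 it was below 1, and without QC cells 14, 19 and 20, which list the most genes, it was -1.66.

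ARF6 (AT1G30330) and ARF7 (AT5G20730), the latter known with ARF19 from lateral root initiation, were above 0 in every library. ARF6 held 5.24, 21.3 and 19 FPM at 0 h and ran from 0.0693 to 359 FPM (median 8.63) in QC cells (-1.05). ARF7 held 59.6, 41 and 79.5 FPM at 0 h and ran from 0.0815 to 471 FPM (median 3.88) in QC cells (-3.68). QC cell 8 was the highest cell for both, and ARF5 was also high in that cell. ARF19 (AT1G19220) held 32.5, 16.6 and 18.3 FPM at 0 h, 0 in the aliquots and 0 in the 6 cells of the set of QC cell 2, with QC cells 12 and 20 at 482 and 221 FPM. ARF8, a class A gene that acts mostly in flowers, was called higher in stele 0 h (-2.15), with 32.9, 3.45 and 0 FPM at 0 h and 22.6, 4.41, 0.0366 and 4.28 FPM at 16 h. Of the QC cells only 14, 19 and 20 listed it, with 148 FPM in QC cell 19, and the aliquots held 0.438, 0.0358, 0.0626 and 2 FPM.

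ARF9 (AT4G23980), a class B gene, was the highest ARF per kilobase in the stele at both times, with medians of 40.6 and 58.3 FPM per kb. It held 105, 156 and 122 FPM at 0 h, 211, 138, 108 and 373 FPM at 16 h and 97.8, 112, 380.1 and 146 FPM in the aliquots. QC cells 14 and 16 to 20 held 34.0 to 187 FPM, and the other 14 QC cells listed it at 0. In the sets of QC cell 1 and QC cell 2 this 0 rests on the gene lists of those cells. QC cell 15 also listed ARF9 at 0, although its counts otherwise lay close to those of QC cell 16 (137 FPM, 9864 reads). Whether that 0 stands for a gene left out was not tested. The difference of -6.94 rests on these zeros, and over the 7 QC libraries that head a set or stand alone the difference was -1.81. ARF2, a repressor known from organ growth, was at 0 in the 7 cells of the set of QC cell 1 and at 24.2 to 106 FPM in QC cells 2, 5, 6, 7, 15, 16 and 20, and ARF1 was at 9.11, 0.747 and 76.1 FPM at 0 h, 0 in the aliquots and highest in QC cell 8 (182 FPM). ARF4 (AT5G60450) was at 0 in all QC cells and aliquots and at 30.0, 1.56 and 6.84 FPM at 0 h and 21.7, 1.39, 1.72 and 1.33 FPM at 16 h, and ARF18 was above 1.78 FPM in 2 libraries, stele 0 h replicate 1 (16.9 FPM) and QC cell 19 (278 FPM). ARF16 and ARF17, the other miR160 targets, were each seen in part of the libraries. ARF16 was at 92.2 and 90.4 FPM in QC cells 17 and 18, 0.687, 0.178 and 14.3 FPM at 0 h and 39, 0.0284, 0 and 0 FPM at 16 h, and ARF17 was at 22.8, 8.71, 0.0235 and 0 FPM in the aliquots.

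The aliquots allow the spread of single cells to be set beside that of repeats of a pool. Of 20 members above 0 in all 4 aliquots, 17 had the larger standard deviation of log2(FPM + 1) in QC cells, against 63.9% of 8760 genes, and the median standard deviations were 2.84 and 1.12 (all genes, 2.64 and 1.97). The choice of genes above 0 in every aliquot keeps zeros out of the aliquots only, and 14 of the 20 were at 0 in at least 1 QC cell. Among genes above 0 in all QC cells and all aliquots, the larger standard deviation lay in QC cells for 6 of 6 members, and 93.6% of 1782 genes showed the same, so that nearly all genes did. The 3 exceptions among the 20 were IAA12, AFB1 and AFB3, whose levels in the aliquots ran over a wide range (3.19, 0.167, 67.1 and 108 FPM for AFB3). IAA9 had 2.88 in QC cells and 0.62 in the aliquots, and ARF5 3.65 and 1.02. The aliquots had 83718007 to 127775758 reads and the QC cells a median of 16739666. The paper states that its QC cells were collected in 4 batches, which the labels used here do not give, while the aliquots came from a single pool. The parts of depth and of batch in this difference of spread were not tested.

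In stele cells 16 h after the cut, 6 members were called. IAA11 and ARF10 were higher at 16 h, 2 of 39 compared (all genes, 8.69% of 15156), and IAA7, IAA12, IAA14 and IAA31 were lower, 4 of 39 (all genes, 11.1%). Both shares were near those of all genes. The median difference, 16 h minus 0 h, was -1.99 over 22 Aux/IAA genes, 0.26 over 13 ARF genes and -1.21 over 4 receptors, beside 0 over all genes.

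IAA12 was the only one of the 6 seen in all 7 stele cells: 195, 55.3 and 67.6 FPM at 0 h and 8.33, 12.4, 1.69 and 0.128 FPM at 16 h, with a difference of -3.78. The others were at 0 throughout 1 of the groups, and that 0 rests on the gene list of replicate 1 of that time. IAA7 (AT3G23050) held 17, 3.8 and 67.4 FPM at 0 h, IAA14 (AT4G14550) 1.72, 0.32 and 4.82 FPM and IAA31 (AT3G17600) 19.6, 0.0356 and 14.2 FPM, and all 3 were at 0 at 16 h. IAA11 held 12.1, 2.87, 1.61 and 0.299 FPM and ARF10 (AT2G28350), known from root cap development, 0.293, 2.79, 10.3 and 0.0428 FPM at 16 h, and both were at 0 at 0 h; ARF10 was also listed in aliquots 1, 2 and 4, at 1.16, 0.167 and 48.2 FPM. At 16 h ARF10 stood at 7, 98, 281 and 1 read, and IAA31 stood at 1 read in replicate 2 at 0 h. With median ratio scaling, or without replicate 2 or 3 at 16 h, ARF10 was not called and IAA11 still was. Restricted to genes listed in replicate 1 of both times, IAA12 was the only member called, against 6.90% of 11378 genes lower and 4.73% higher. ARF3, known from the abaxial side of organs, was likewise at 4.35, 0.796, 0.11 and 0 FPM at 16 h and 0 at 0 h, with overlap at 0.

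Many Aux/IAA genes overlapped between the times through replicate 1 at 16 h. That cell lay among the cells of 0 h for IAA1, IAA2, IAA3, IAA8, IAA9 and IAA19, among others. It lay above them for IAA13 and IAA28 and below them for IAA17. The summed Aux/IAA level was 1912, 3307.5 and 2236 FPM at 0 h and 2172, 632, 1022 and 645 FPM at 16 h, so 3 of the 4 cells at 16 h lay below all cells at 0 h. Without replicate 1 at 16 h, 11 members were called lower, with IAA1, IAA2, IAA3, IAA8, IAA9, IAA13 and IAA19 added, against 12.9% of genes. Leaving out a cell that overlapped makes such a call easier. IAA4, IAA16, IAA17, IAA18, IAA26 and IAA28 still overlapped through other cells of 16 h. The ARF sum ran the other way without separating, at 309, 288 and 445 FPM at 0 h and 782, 312, 652 and 565 FPM at 16 h: ARF5 held 254, 60.4, 306 and 0.171 FPM and ARF6 85.1, 50.2, 102 and 0.556 FPM at 16 h. The receptor sum was 169, 640.1 and 283 FPM at 0 h and 240.0, 373, 33.7 and 259 FPM at 16 h. Stele markers moved with time too: the sum over the list went from 398 to 1126 FPM down to 2.42 to 204 FPM, and the part of these marker changes in the Aux/IAA levels was not tested.

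**Figure D5:**
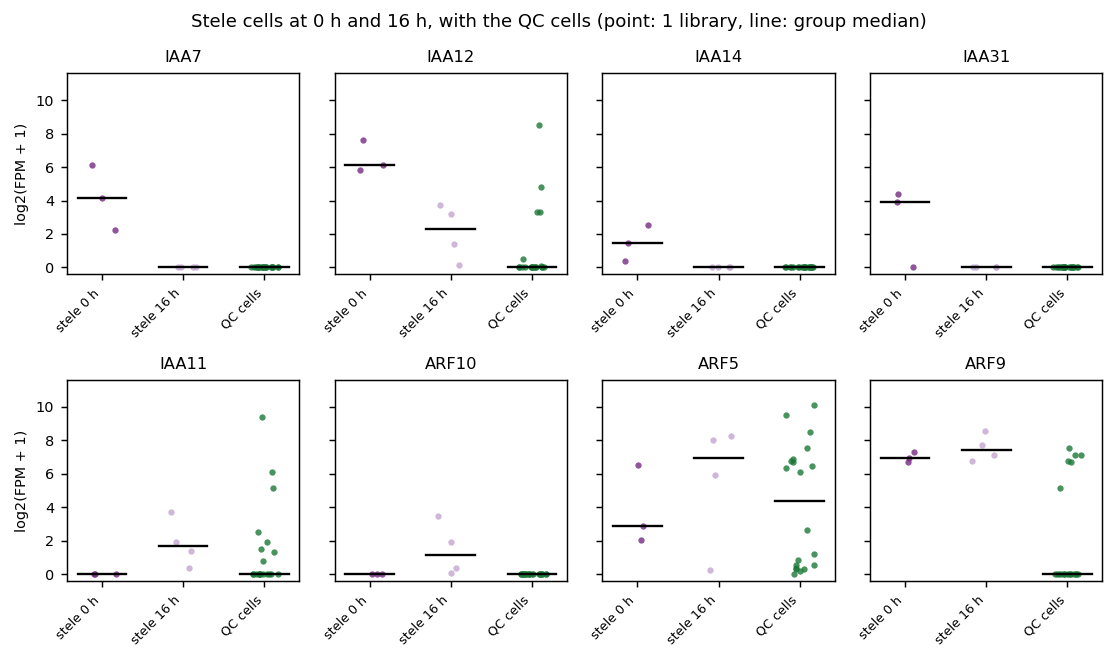
Level of the 6 genes called between stele cells at 16 h and 0 h, and of ARF5 and ARF9, as log2(FPM + 1), with the 20 QC cells for reference; each point is 1 library and each black line a group median. IAA12 drops from 55.3 to 195 FPM at 0 h to 12.4 FPM or less at 16 h, IAA7, IAA14 and IAA31 are on the zero line at 16 h, and ARF5 and ARF9 overlap between the times.

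The other genes of the pathway come from a list of 38. All 9 genes of the SCF ligase and its conjugation cycle, among them CUL1 and ASK1, which carry the F-box protein, and all 6 corepressor genes, among them TPL and HDA19, were above 0 in every stele cell and aliquot. Against stele 0 h, 5 of the 9 ligase genes were called higher in the stele. ECR1 and RCE1, which attach the RUB modifier to the cullin, were called higher in QC cells. Of the corepressor genes 4 were higher in the stele and TPR3 in QC cells. Over all genes compared, 58.3% were called higher in stele 0 h and 4.71% higher in QC cells, so calls toward the stele were common. TPL held a median of 289 FPM in QC cells and 223 FPM at 0 h. AFB4 and AFB5, the receptors that also bind picloram, were both higher in stele 0 h: AFB4 had medians of 14.7 FPM in QC cells, 669 FPM in the aliquots, 552 FPM at 0 h and 114 FPM at 16 h. TMO7, a small bHLH gene that ARF5 switches on in the embryo, was the only one of 8 response genes called higher in QC cells, above 0 in 19 of 20 with a range of 0 to 515 FPM, and it was at 0 in all 7 stele cells. HAT2, a homeodomain gene induced by auxin, and 1 other were called higher in stele 0 h. Of the LBD genes that ARF7 and ARF19 activate in lateral roots, LBD16 was above 0 in 3 of 4 cells at 16 h, at up to 36.5 FPM, and in no other library, and LBD18, LBD29 and LBD33 were at 0 in all 31. None of the 38 genes on this list was called between the stele times (all genes, 8.69% higher and 11.1% lower at 16 h). Genes at 0 throughout could not be called, among them the 7 ARF genes of the ARF12 group, the TAS3 locus and the microRNA precursor loci.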

How the data were processed

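Single root cells and pooled-and-split aliquots were profiled from amplified polyA RNA with a library kit that keeps no strand. Per their methods, the authors aligned reads to TAIR10 with Bowtie2 (version not given in the sources used here), summed reads over the exons of each gene, counted a read with several locations in part, left out genes with little covered length, scaled to depth and deposited log2 values. Near-identical paralogs may therefore exchange reads, and a 0 may stand for a gene left out. Each library's value per read was recovered from the deposited log2 table (log2 of the scaled count plus 1, whole within 0.05 read), and FPM was computed over 32678 loci without the GFP and CFP entries. Totals ran from 11637897 to 127775758 reads. Groups followed the labels. With no plant named, each group counted as 1 sample: no test between groups was run, and values, medians, ranges and calls by size are given; Dixon's criterion served only to pick out single libraries. All 48 members could be named. Members and lists were chosen with earlier results of these data known. Alternatives were other pseudocounts, a filter on low values, another scaling, thinning, and leaving out libraries. Sequences came from RefSeq (TAIR10.1), whose coordinates were used only for those sequences. Python 3.11.15, pandas 2.3.3, numpy 2.4.6, scipy 1.17.1 and matplotlib 3.10.9 were used, and the recovery of reads and the calls were tested on simulated data.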

Additional observations from a re-analysis of the deposited data

Results flagged for a closer look

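In 7 of 55 groups of 4 libraries in which a member was tested, 1 library lay far from the other 3 by Dixon's criterion. Chance gives about 1 group in 20 only where values are normal and the 4 libraries are repeats of each other. The criterion was applied to FPM, not to log values, and in each of the 7 the library was the highest of the 4. No excess over chance is therefore read from this count. Among stele cells at 16 h, IAA4 stood at 56.8 FPM in replicate 1 against 0.0284 to 5.90 FPM in the others, ARF4 at 21.7 FPM in replicate 1 against 1.33 to 1.72 FPM, and IAA17 at 81.4 FPM in replicate 3 against 0.385 to 6.31 FPM. Among the aliquots, ARF2 stood at 33.9 FPM in aliquot 1 against 0.0924 to 5.07 FPM, IAA10 at 3.76 FPM in aliquot 2 against 0.00924 to 0.373 FPM, ARF9 at 380.1 FPM in aliquot 3 against 97.8 to 146 FPM, and IAA12 at 178 FPM in aliquot 4 against 3.48 to 19.0 FPM.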

How the results depend on the processing

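No paired analysis was possible because no test between groups was run and the replicate numbers only name cells. Requiring 1 FPM for detection gave medians of 18 members in the aliquots and 24.5 at 16 h; requiring 10 FPM gave 7.5 in QC cells, 13.5 in the aliquots, 22 at 0 h and 16.5 at 16 h. Thinning left 21.5 members in the aliquots, and the first library of each set alone listed 27 in the aliquots, 34 at 0 h and 36 at 16 h. A mean of at least 10 FPM left 19 members higher in stele 0 h, 0 higher at 16 h and 2 lower at 16 h, and a pseudocount of 10 FPM also left 0 higher at 16 h. Median ratio scaling, which moved the median of all genes from -1.90 to -1.37 between QC cells and stele 0 h, left 1 higher at 16 h, and gave median sums of 642 (Aux/IAA), 301 (ARF) and 169.6 (TIR1/AFB) FPM in the aliquots, 1354 (Aux/IAA) and 219 (ARF) at 0 h and 378 (ARF) at 16 h. Without its highest member, the Aux/IAA sum was 832 in the aliquots and 1298 at 0 h, the ARF sum 266 in the aliquots and the TIR1/AFB sum 73.3 at 16 h. Leaving out each stele 0 h library in turn gave 1 to 2 members higher in QC cells and 27 to 29 higher in stele 0 h. QC cells were not left out singly. Leaving out each stele library in turn gave 1 to 4 higher and 4 to 11 lower at 16 h, and the 11 came without replicate 1 at 16 h. The ARF5 difference ran from -0.33, without stele 0 h replicate 1, to 1.93, and 8 members were lower at 16 h without that library. The next 5 alternatives were chosen after seeing the data. With only the 7 QC libraries that head a set or stand alone, 5 members were higher in QC cells (IAA20, IAA30, IAA33, ARF5 and TIR1, against 10.5% of all genes) and IAA13 turned to 0.58. Without QC cells 14, 19 and 20, 1 was higher and ARF5 turned to -1.66. Allowing overlap between stele groups gave 6 higher and 19 lower at 16 h, and genes listed in replicate 1 of both times gave 0 and 1. Of members above 0 in all QC cells and aliquots, 6 had the larger spread in QC cells, against 17 with the wider choice of genes, since fewer genes were compared. The other causes were not tested.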
